A study of Mus musculus with 16 samples.

Results

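The TRBJ1 cluster is the first of 2 groups of joining (J) segments in the mouse T cell receptor beta locus. Its members are TCRBJ01-01 to TCRBJ01-07, the 7 of 14 J genes whose name starts with TCRBJ01, taken from the J gene call of each rearrangement. They correspond to the gene symbols Trbj1-1 to Trbj1-7. TRBJ1 rearrangements made up 66035 of the 198953 unique rearrangements summed over 16 samples. TRBJ2 accounted for 132674 of them, and a small rest had no single J gene.

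T cells came from KPC-Luc tumors, a mouse pancreatic ductal adenocarcinoma line grown under the skin of female C57BL/6 mice, and each of the 4 groups held 4 samples. Control mice were given scrambled peptide and isotype IgG, ANT008 mice the VIP receptor antagonist peptide ANT008 and IgG, anti-PD-1 mice scrambled peptide and anti-PD-1, and combination mice ANT008 and anti-PD-1. All mice bore the same tumor line and had 10 µg of peptide daily and 200 µg of antibody every 3 days over 10 days. The labels give no age, and these are transplanted tumors outside the pancreas. The comparison of groups asked whether blocking VIP receptors, PD-1 or both changed the T cell repertoire in the tumor. The labels describe enrichment on CD90.2 beads to a purity of 80 to 85%, but in a protocol that ends with another assay, and the study's text also speaks of extraction from whole tumors, so it is not settled that these samples were enriched. Receptor tables hold no marker genes, so the T cell label could not be checked against them. Cell numbers and RNA per cell cannot be told apart in such bulk samples.

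A beta chain is assembled from a variable (V), a diversity (D) and a J segment, with bases trimmed from the ends and others added without a template at the joints. The joint forms CDR3, the loop that contacts the peptide. RefSeq places TRBD1 before the TRBJ1 genes and TRBD2 between TRBJ1 and TRBJ2, so a joint of TRBD2 with a TRBJ1 gene is not formed by the usual deletion of the DNA between segments. An out-of-frame rearrangement makes no receptor chain, so its J gene is not subject to selection on the protein. Out-of-frame rearrangements therefore served as the comparison for productive ones, which are in frame with no stop codon.

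Samples held 11317 to 99411 templates, the molecules counted by the sequencing service, with a median of 45169. TRBJ1 contributed 833 to 4493 unique productive rearrangements and 2350 to 23967 productive templates per sample. A single template supported 64.6 to 81.9% of the unique productive TRBJ1 rearrangements. Any pair of samples shared 0.332 to 1.14% of the rearrangements of the smaller one. The service's own sample numbers differed from the GEO replicate numbers in 13 of 16 samples, whereas its group tags matched in 16 of 16.

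The untrimmed J parts are shown because they are what distinguishes the 7 members in these 87-base sequences. Each is the stretch from the first J base to the end of the sequence, read from rearrangements with no J deletion, 5′ to 3′, with all J bases in capitals.
TCRBJ01-01: CAAACACAGAAGTCTTC
TCRBJ01-02: CAAACTCCGACTACACC
TCRBJ01-03: TTCTGGAAATACGCTCTAT
TCRBJ01-04: TTTCCAACGAAAGATTATTT
TCRBJ01-05: TAACAACCAGGCTCCGCTT
TCRBJ01-06: TTCCTATAATTCGCCCCTCTAC
TCRBJ01-07: CCTGTGT

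TCRBJ01-06 had the longest J part, 22 bases, and TCRBJ01-07 the shortest, 7 bases. TCRBJ01-07 stood apart in other ways too. It was called 63 times in all, always with no J deletion, and 36 of these rearrangements were out of frame, 23 carried a stop codon and 4 were productive. Of its 27 in-frame rearrangements 85.2% held a stop codon, against 1.47 to 2.30% for the other TRBJ1 genes. Its 4 productive rearrangements came from 3 samples and 6 templates. Their CDR3 averaged 23.0 nt (mean of 3 samples), and its 36 out-of-frame rearrangements carried 35.9 inserted bases on average (mean of 14 samples), so TCRBJ01-07 calls did not look like those of the other 6 members.

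Counting each unique rearrangement once, TRBJ1 held close to 33% of the productive repertoire in every mouse. Its share was 32.6% ± 0.795 (SD, n = 16), from 30.7% in combination replicate 1 to 34.2% in control replicate 4. TCRBJ01-01 was the most used member at 8.76% ± 0.289 (SD, n = 16). TCRBJ01-04 followed at 7.19% ± 0.459, TCRBJ01-02 at 5.53% ± 0.501 and TCRBJ01-03 at 4.90% ± 0.283 (SD, n = 16 each). TCRBJ01-05 and TCRBJ01-06 were the least used working members at 3.13% ± 0.287 and 3.06% ± 0.245 (SD, n = 16). Neighbours in this order differed across the mice (exact sign-flip permutation test, adjusted p of 0.000146 or less), except that TCRBJ01-05 exceeded TCRBJ01-06 by 0.0682 points in only 9 of 16 mice (exact sign-flip permutation test, two-sided, p = 0.562).

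**Figure D1:**
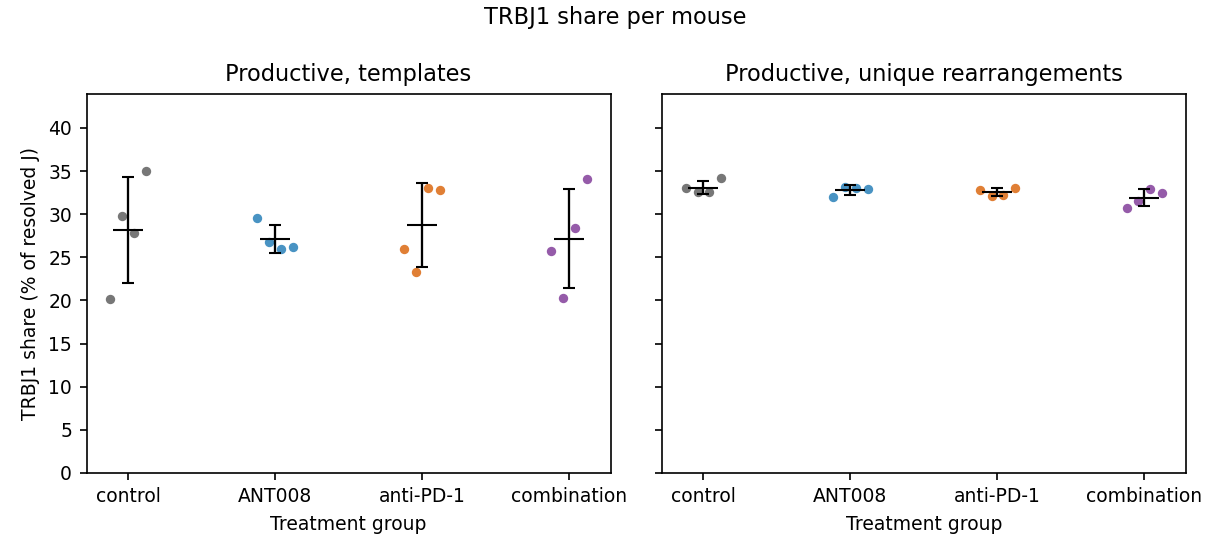
TRBJ1 as a percent of all J genes in each of the 16 mice (n = 4 per group), by unique productive rearrangements and by productive templates; points are mice and bars are group means with SD. Unique shares lie between 30.7 and 34.2%, whereas template shares spread from 20.2 to 35.0% and overlap between all groups.

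By mean share the order among out-of-frame rearrangements was not the same, and the cause was not tested. Among unique out-of-frame rearrangements TRBJ1 held 34.5% ± 1.29 (SD, n = 16), from 32.4 to 37.4%. TCRBJ01-01 led at 7.85% ± 0.584, and TCRBJ01-02 came next at 7.12% ± 0.607, ahead of TCRBJ01-04 at 6.83% ± 0.511 (SD, n = 16 each). The last 2 did not differ beyond their spread, with TCRBJ01-02 higher by 0.288 points in 11 of 16 mice (exact sign-flip permutation test, two-sided, p = 0.130). TCRBJ01-03, TCRBJ01-05 and TCRBJ01-06 held 5.15% ± 0.482, 3.95% ± 0.436 and 3.50% ± 0.303 (SD, n = 16).

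Set against out-of-frame rearrangements of the same mouse, the productive repertoire used TCRBJ01-01 and TCRBJ01-04 more and the other 5 members less. Of all 14 J genes, 35.7% were higher and 50% lower among productive rearrangements, and the TRBJ2 genes had 3 higher and 2 lower. The productive share of the whole cluster was lower in 16 of 16 mice, by a mean of 1.87 points (paired difference -1.87, SE 0.290; exact sign-flip permutation test, two-sided, p = 3.05e-05, the smallest that 16 mice allow). TCRBJ01-02 had the widest gap of the TRBJ1 genes, a paired difference of -1.59 points (SD 0.620), and was lower in 16 of 16 mice. TCRBJ01-05 was also lower in 16 of 16 mice, with a difference of -0.814 points (SD 0.450). TCRBJ01-01 went the other way and was higher in 16 of 16 mice, by 0.914 points (SD 0.597). For these 3 genes the adjusted p was 0.000142 each, by the exact sign-flip permutation test over 14 J genes. TCRBJ01-04 was higher by 0.360 points in 12 of 16 mice (exact permutation, adjusted p = 0.00427). TCRBJ01-06 was lower in 14 of 16 mice, with a difference of -0.433 points (exact permutation, adjusted p = 0.00128), and TCRBJ01-07 was lower in 14 of 16 mice, at -0.0489 points (exact permutation, adjusted p = 0.000342). TCRBJ01-03 passed narrowly at -0.259 points, lower in 10 of 16 mice (exact permutation, adjusted p = 0.0340).

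The balance of 2 higher and 5 lower TRBJ1 genes held for unique rearrangements with all mice included. Leaving out any 1 of 5 mice took TCRBJ01-03 out of the lower set. Weighted by templates 4 of the TRBJ1 genes passed, and TCRBJ01-01 turned to -1.67 points (exact permutation, adjusted p = 0.0129), TCRBJ01-04 to -0.404 and TCRBJ01-05 to 0.208 points. With rearrangements of 1 template left out, TCRBJ01-01 and TCRBJ01-04 stood at -0.0386 and -0.193 points, so the direction of both rested on rearrangements seen once.

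**Figure D2:**
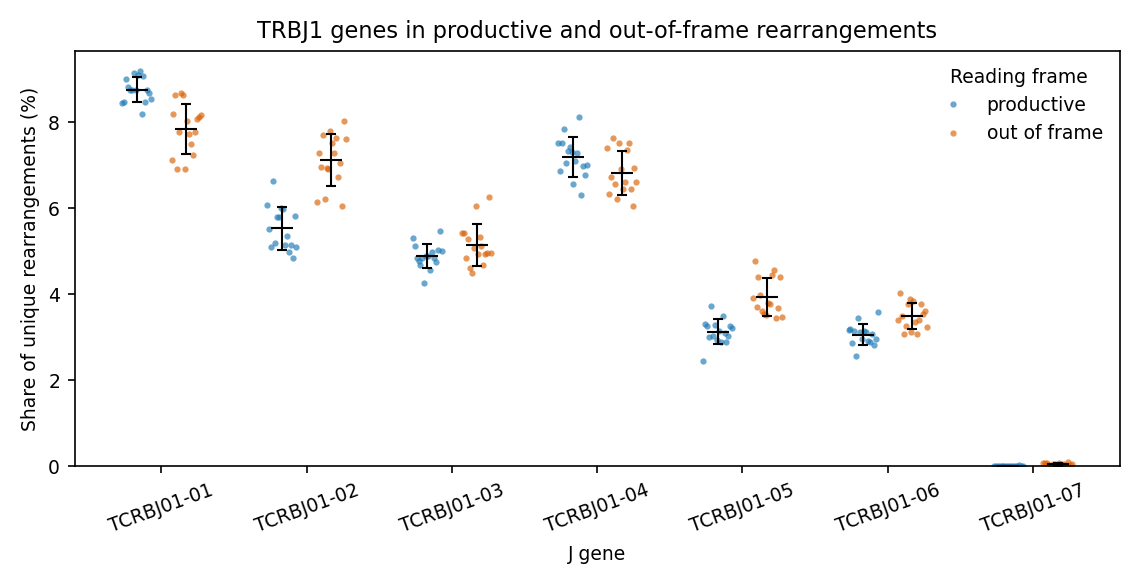
Percent of unique rearrangements using each TRBJ1 gene among productive and out-of-frame rearrangements, with 1 point per mouse (n = 16) and the mean with SD. TCRBJ01-01 and TCRBJ01-04 are higher among productive rearrangements, and TCRBJ01-02 shows the widest gap, at 5.53 against 7.12%.

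Weighting by templates, which counts expanded clones in full, gave a different order and far more spread between mice. The TRBJ1 share of productive templates was 20.2, 29.8, 27.8 and 35.0% in control mice and 29.6, 26.8, 26.0 and 26.2% in ANT008 mice. It was 26.0, 23.3, 33.0 and 32.8% in anti-PD-1 mice and 25.8, 20.3, 28.4 and 34.1% in combination mice. The groups overlapped throughout, and control mice alone covered the whole range. Treated mice differed from control by -1.08 points with ANT008, 0.547 points with anti-PD-1 and -1.07 points with the combination (SE 3.49 each; exact permutation form of Dunnett's test, two-sided, p = 0.979, 0.998 and 0.980). The unique productive share of TRBJ1 was 33.1% ± 0.778 in control, 32.8% ± 0.558 in ANT008, 32.5% ± 0.465 in anti-PD-1 and 31.9% ± 1.02 in combination mice (SD, n = 4). All 4 combination mice lay below the control mean and 3 below the lowest control mouse, but the difference of -1.17 points did not pass (exact permutation form of Dunnett's test, p = 0.0989, adjusted p = 0.356 over 18 comparisons).

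TCRBJ01-04 held the most productive templates of the cluster, 6.55% ± 1.75 (SD, n = 16), and TCRBJ01-06 the least of the working members, 1.39% ± 0.586. TCRBJ01-01, first by unique rearrangements, had a lower mean than TCRBJ01-05, TCRBJ01-03 and TCRBJ01-02 by templates, at 4.83% ± 1.27 against 5.16% ± 3.60, 4.99% ± 2.60 and 4.89% ± 3.46 (SD, n = 16), differences that were not tested and lie within the spread. The template share was below the unique share in 16 of 16 mice for both TCRBJ01-01, with a mean ratio of 0.550, and TCRBJ01-06, with a mean ratio of 0.451. TCRBJ01-05 had a mean ratio of 1.60 and lay below 1 in 7 of 16 mice. These ratios were picked out after their values were seen and carry no test. Rearrangements with 1 template made up 83.8% of the unique productive TCRBJ01-01 rearrangements and 83.2% of those of TCRBJ01-06, as against 67.0% for TCRBJ01-05.

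In control mice TCRBJ01-02 took 4.11, 3.80, 3.54 and 17.6% of productive templates. With ANT008 it took 2.48, 4.37, 4.64 and 4.17%, with anti-PD-1 4.72, 4.21, 4.09 and 3.92%, and with the combination 5.84, 2.82, 4.18 and 3.85%. Control replicate 4 stood apart and the other 15 mice overlapped. For TCRBJ01-03 the shares were 2.23, 4.75, 2.87 and 2.23% in control and 3.22, 4.72, 3.36 and 8.50% in ANT008 mice. They were 6.52, 4.21, 3.97 and 4.33% in anti-PD-1 and 3.72, 4.92, 11.5 and 8.82% in combination mice. Combination mice reached the highest TCRBJ01-03 values, and their lowest mouse still lay below the highest control. TCRBJ01-05 held 3.31, 8.36, 4.95 and 2.51% in control and 11.3, 2.62, 1.72 and 2.32% in ANT008 mice. In anti-PD-1 mice it held 3.56, 4.17, 12.0 and 10.5%, and in combination mice 2.86, 1.83, 2.53 and 8.12%. Every group thus held both low and high TCRBJ01-05 mice.

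TCRBJ01-01 ranged from 2.56 to 7.00%, TCRBJ01-04 from 4.12 to 10.7% and TCRBJ01-06 from 0.566 to 3.22% of productive templates, with all groups overlapping. None of the 6 TRBJ1 genes that passed the filter was called as changed with treatment by edgeR's quasi-likelihood test, and TCRBJ01-07, with 6 templates, was not tested. Over the 13 J genes tested the share called was 0% for ANT008, 7.69% for anti-PD-1 (TCRBJ02-04) and 0% for the combination. At an unadjusted p under 0.05 the TRBJ1 counts were 0, 0 and 1, and DESeq2 called 0 TRBJ1 genes in each comparison. That 1 gene was TCRBJ01-03, 7.24% ± 3.59 in combination against 3.02% ± 1.19 in control mice (SD, n = 4). The edgeR estimate on the log2 scale was 1.26 (SE 0.417, unadjusted p = 0.00702, adjusted p = 0.0912). It was called when combination replicate 1 or control replicate 2 was left out (edgeR, adjusted p = 0.0333 and 0.0261). By unique productive rearrangements its share was 5.07% ± 0.302 in combination and 5.01% ± 0.249 in control mice (SD, n = 4). The leading TRBJ1 clone alone made up 32.5, 57.4 and 53.2% of TCRBJ01-03 templates in combination replicates 2, 3 and 4. In combination replicate 1 and the control mice that clone used another J gene. TCRBJ01-02 had log2 fold changes of -0.89 with ANT008 and -0.78 with anti-PD-1 (edgeR, adjusted p = 0.208 and 0.342), which became 0.04 and 0.15 without control replicate 4.

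**Figure D3:**
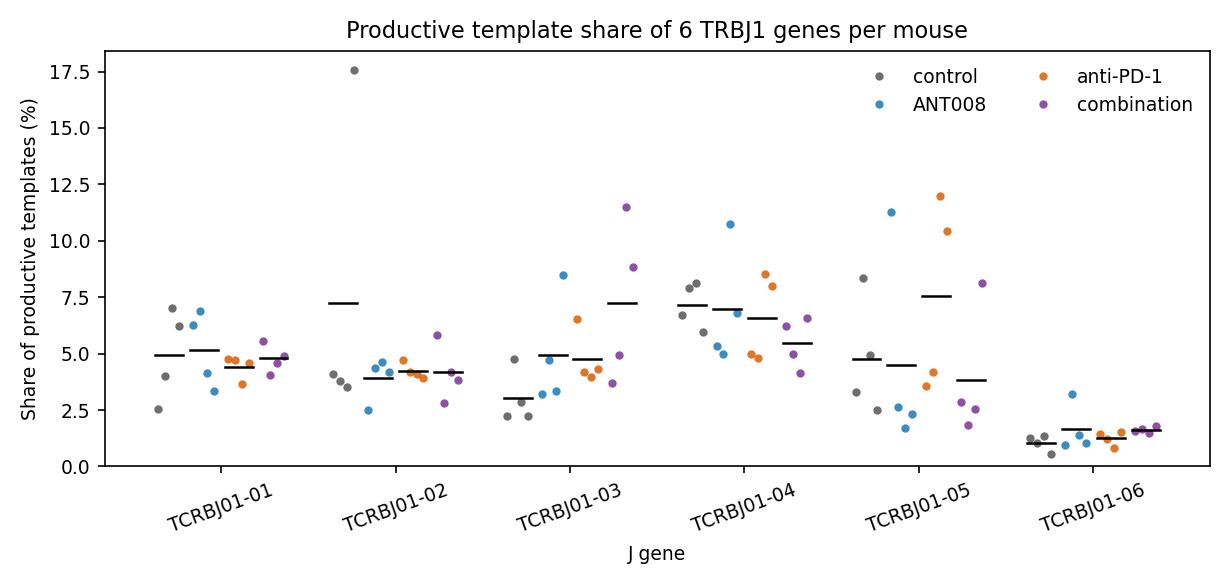
Percent of productive templates using each TRBJ1 gene other than TCRBJ01-07, 1 point per mouse and 4 mice per group, with lines at the group means. TCRBJ01-02 has 1 control mouse at 17.6% and TCRBJ01-05 has low and high mice in every group.

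Expanded clones held a varying part of these templates. The leading TRBJ1 clone of a mouse, meaning the rearrangement with the most templates, held 1.54 to 12.7% of all productive templates and 5.75 to 36.3% of those of TRBJ1. In control replicate 4 it was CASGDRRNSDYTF, which joined TCRBV13-02 to TCRBJ01-02 and had 4737 templates. It was the largest clone of that mouse, with 12.7% of productive templates (95% Wilson interval 12.4 to 13.0%, counting error only), and made up 72.3% of its TCRBJ01-02 templates. In ANT008 replicate 3 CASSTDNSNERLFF with TCRBV19-01 and TCRBJ01-04 held 7.06%, and in combination replicate 3 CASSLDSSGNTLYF with TCRBV26-01 and TCRBJ01-03 held 6.60% (3872 templates). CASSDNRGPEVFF with TCRBJ01-01 led in control replicate 3 (2.97%), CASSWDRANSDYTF with TCRBJ01-02 in combination replicate 1 (1.76%), and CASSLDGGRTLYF and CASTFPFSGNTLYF, both with TCRBJ01-03, in replicate 1 of anti-PD-1 (1.82%) and replicate 2 of the combination (1.60%). Clones of 15 residues led in control replicate 1 (TCRBJ01-04, 3.83%), ANT008 replicate 2 (TCRBJ01-06, 1.54%), ANT008 replicate 4 (TCRBJ01-03, 2.06%) and combination replicate 4 (TCRBJ01-03, 4.69%). Every TRBJ1 gene but TCRBJ01-07 thus led in at least 1 mouse.

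The 10 leading TRBJ1 clones held 43.4, 45.7, 35.0 and 66.6% of TRBJ1 templates in control mice and 50.9, 21.1, 45.5 and 37.3% in ANT008 mice. They held 24.2, 37.1, 57.7 and 34.4% in anti-PD-1 mice and 20.3, 22.4, 41.1 and 38.8% in combination mice. Combination mice averaged 30.7% ± 10.8 against 47.7% ± 13.4 in control (SD, n = 4), with overlap between the groups. No difference passed (exact permutation form of Dunnett's test, two-sided, p = 0.645 for ANT008, 0.621 for anti-PD-1 and 0.199 for the combination).

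One TCRBJ01-05 receptor recurred among the leaders and is described for that reason, after its values were seen. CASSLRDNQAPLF was the leading TRBJ1 clone of ANT008 replicate 1 (1311 templates, 5.78% of productive templates), of anti-PD-1 replicate 2 (2.89%) and of anti-PD-1 replicate 3 (4262 templates, 5.87%). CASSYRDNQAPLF led in control replicate 2 (2054 templates, 4.98%) and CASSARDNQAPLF in anti-PD-1 replicate 4 (544 templates, 7.58%), where it was the largest clone of any J gene. The CDR3s of 13 residues that differ only at the fifth residue numbered 9, lay in 15 of 16 mice and had 12516 templates, of which 99.3% used TCRBV03-01. In anti-PD-1 replicate 1, ANT008 replicates 2 and 3 and combination replicates 1 and 2 they had only 1, 4, 7, 3 and 1 templates. They passed 1% of productive templates in 6 mice, namely control replicate 2 at 6.56%, ANT008 replicate 1 at 5.83%, anti-PD-1 replicates 2, 3 and 4 at 2.93, 5.92 and 7.62%, and combination replicate 4 at 5.36%. All 4 groups were thus among them. Without these CDR3s the TCRBJ01-05 template share ran from 1.27 to 6.45%, with a mean of 2.98%, in place of 1.72 to 12.0% and 5.16%.

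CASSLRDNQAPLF itself lay in 12 mice and was among the 50 most frequent CDR3s of 8. It had only 1, 1 and 3 templates in ANT008 replicate 2, anti-PD-1 replicate 1 and combination replicate 1. It was encoded by 51 nucleotide versions, and the 4 with over 100 templates are printed to show how the same CDR3 was written in different mice. Bases assigned to TCRBJ01-05 are in capitals, 5′ to 3′, and all 4 begin in TCRBV03-01.
Version 1: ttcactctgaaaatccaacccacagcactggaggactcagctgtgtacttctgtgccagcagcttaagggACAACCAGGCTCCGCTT
Version 2: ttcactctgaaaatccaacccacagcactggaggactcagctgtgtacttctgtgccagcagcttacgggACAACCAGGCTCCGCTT
Version 3: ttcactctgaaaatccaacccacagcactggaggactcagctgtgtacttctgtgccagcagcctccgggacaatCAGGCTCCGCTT
Version 4: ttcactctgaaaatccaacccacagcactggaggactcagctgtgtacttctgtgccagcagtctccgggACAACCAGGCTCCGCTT

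Version 1 had 5908 templates in 2 mice, namely 1646 in combination replicate 4 and 4262 in anti-PD-1 replicate 3. Version 2 had 2570 templates in 8 mice, led by 1311 in ANT008 replicate 1, 627 in control replicate 2 and 346 in control replicate 3. Version 3 had 914 of its 916 templates in anti-PD-1 replicate 2, and version 4 had 117 of its 119 in control replicate 1. The other 47 versions had at most 4 templates each and 84 in total. Such rare versions accompanied every leading TRBJ1 clone. Between 3 and 26 other nucleotide versions of its CDR3 were found in the same mouse, each with at most 5 templates and 78 of the 147 with another V gene, and they were 0.124 to 1.87% of the mouse's unique productive TRBJ1 rearrangements.

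Some TRBJ1 CDR3s found in most mice held few templates, unlike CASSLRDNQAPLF, which lay in 12 mice and reached 5.92% of productive templates. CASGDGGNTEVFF, joining TCRBV13-02 to TCRBJ01-01, was found in 16 of 16 mice but held 0.00867 to 0.0873% of productive templates. A CDR3 of 15 residues with TCRBJ01-04 was also found in 16 of 16 mice, at 0.00268 to 0.0455%, and another with TCRBJ01-04 in 15. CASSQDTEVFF and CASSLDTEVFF, both with TCRBJ01-01, lay in 15 and 14 mice. Among the 50 most frequent CDR3s of 3 or more mice were 3 of TRBJ1, out of 15 for all J genes. They were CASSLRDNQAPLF, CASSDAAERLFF with TCRBV13-01 and TCRBJ01-04, which lay in 7 mice and in the top 50 of 4, and a CDR3 of 15 residues with TCRBV01-01 and TCRBJ01-02, which lay in 11 mice. Of 31286 TRBJ1 CDR3 amino acid sequences 11.8% were found in 2 or more mice, as against 13.0% for TRBJ2. The share was 12.9, 13.0, 12.7 and 11.5% for TCRBJ01-01 to TCRBJ01-04, and 8.96 and 9.33% for TCRBJ01-05 and TCRBJ01-06.

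The joints of TRBJ1 rearrangements were shorter than those of TRBJ2. Productive CDR3s averaged 41.7 nt with TRBJ1 and 42.2 nt with TRBJ2, a paired difference of -0.508 nt (SE 0.0423), and TRBJ1 was higher in 0 of 16 mice (exact sign-flip permutation test, two-sided, p = 3.05e-05). TRBJ1 genes lost 2.62 bases on average, and TRBJ2 genes 2.93, again with TRBJ1 higher in 0 of 16 mice (exact permutation, adjusted p = 5.09e-05). That difference was -0.309 bases, and without TCRBJ02-07 it was -0.0140 bases (exact permutation, p = 0.365). Inserted bases averaged 3.45 with TRBJ1 and 3.61 with TRBJ2, a difference of -0.162 (exact permutation, adjusted p = 0.000153), and out of frame 4.02 and 4.20, a difference of -0.184 (exact permutation, p = 0.00143). TCRBD02 made up 10.7% ± 0.893 of the D calls in productive TRBJ1 rearrangements and 64.2% ± 1.66 in TRBJ2 (SD, n = 16). A D gene was called for 30933 of the 40940 productive TRBJ1 rearrangements, and whether the TCRBD02 calls are correct was not tested. Weighted by templates the CDR3 difference was -0.0887 nt (exact permutation, p = 0.697).

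Members of TRBJ1 differed from one another at the joint. TCRBJ01-03 was trimmed least, by 1.47 bases on average with 53.3% of its productive rearrangements untrimmed, and TCRBJ01-02 was next at 1.87 bases and 36.8%. TCRBJ01-06 was trimmed most, by 3.99 bases with 21.4% untrimmed, and still gave the longest CDR3 at 43.1 nt. TCRBJ01-01, TCRBJ01-04 and TCRBJ01-05 lost 2.82, 2.93 and 3.20 bases. CDR3 length was 39.9, 40.9, 42.9, 43.0 and 41.5 nt for TCRBJ01-01 to TCRBJ01-05. Inserted bases ranged from 3.16 for TCRBJ01-06 to 3.55 for TCRBJ01-04.

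Treated mice carried fewer inserted bases in productive TRBJ1 rearrangements than control mice. The mean number per unique rearrangement was 3.61, 3.53, 3.53 and 3.60 in control and 3.42, 3.40, 3.35 and 3.45 in ANT008 mice. It was 3.29, 3.39, 3.44 and 3.40 in anti-PD-1 and 3.51, 3.38, 3.45 and 3.38 in combination mice. All 12 treated mice lay below the lowest control mouse. The difference from control was -0.163 bases with ANT008 and -0.185 with anti-PD-1 (SE 0.0382; exact permutation form of Dunnett's test, two-sided, p = 0.00358 and 0.00133, adjusted p = 0.0322 and 0.0239 over 18 comparisons). With the combination it was -0.135 bases (exact permutation, p = 0.0115), which did not pass the adjustment (adjusted p = 0.0691). The mean was below that of control for 6 of 6 genes with ANT008, 5 of 6 with anti-PD-1 and 5 of 6 with the combination.

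The same measure in TRBJ2 differed from control by -0.0958, -0.0608 and -0.0215 bases (exact permutation, p = 0.265, 0.597 and 0.963). No change with treatment passed for the difference between TRBJ1 and TRBJ2 (exact permutation, p = 0.593, 0.0970 and 0.149), so the change was not shown to be particular to TRBJ1. In control mice that difference ran from -0.196 to 0.115 bases. Below the lowest control mouse lay 1 ANT008, 3 anti-PD-1 and 3 combination mice, so a change was not excluded either. Out-of-frame TRBJ1 rearrangements, which had 4.22 inserted bases in control mice, differed by -0.133, -0.318 and -0.350 bases (exact permutation, p = 0.439, 0.0230 and 0.0136). Among productive rearrangements with 2 or more templates the differences were -0.139, -0.135 and -0.203 bases (exact permutation, p = 0.185, 0.201 and 0.0406), so the calls with ANT008 and with anti-PD-1 were lost, and weighted by templates no difference passed. TRBJ1 CDR3 length and J deletions did not pass in any comparison. CDR3 length was 41.8 nt in control and differed by -0.290, -0.197 and -0.0860 nt (exact permutation form of Dunnett's test, p = 0.0889, 0.324 and 0.866). J deletions differed by 0.0377, -0.0149 and -0.0582 bases (exact permutation, p = 0.504, 0.930 and 0.205).

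**Figure D4:**
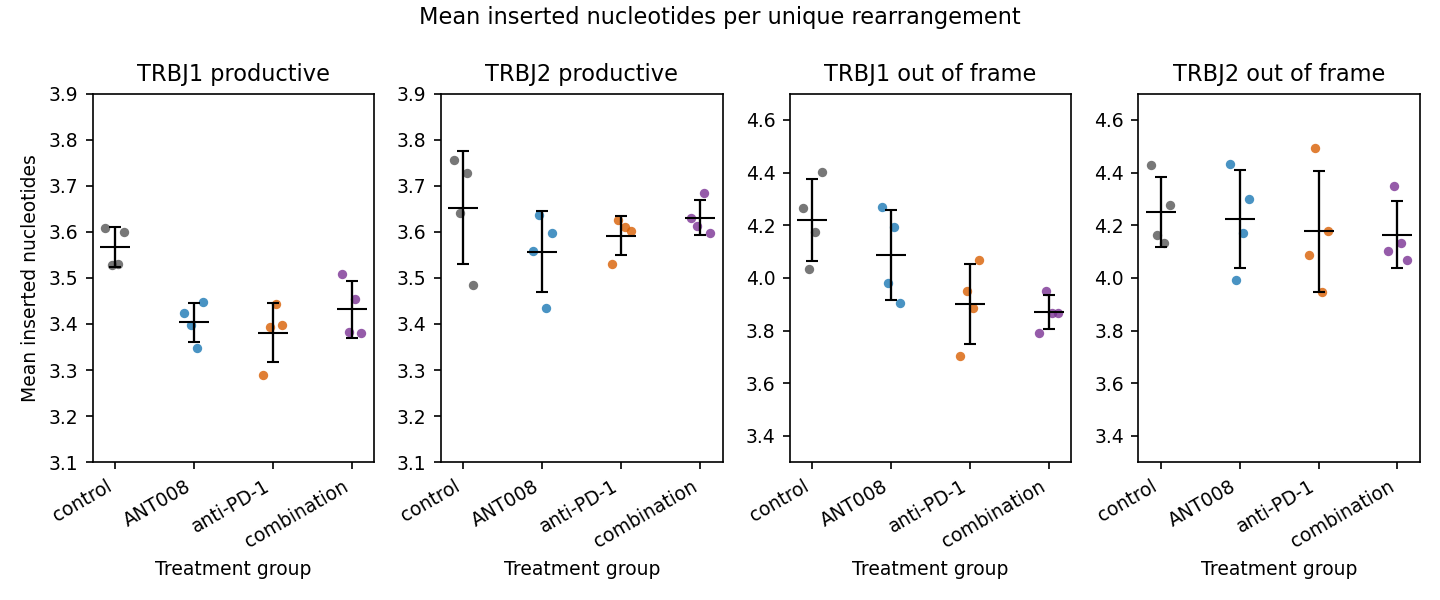
Mean number of inserted bases per unique rearrangement in each mouse (n = 4 per group), for TRBJ1 and TRBJ2, productive and out of frame, with group means and SD and with axes that do not start at 0. All 12 treated mice lie below the 4 control mice for productive TRBJ1, whereas treated and control mice overlap for TRBJ2, where control replicate 4 is the lowest productive control at 3.48. For out-of-frame TRBJ1 all 4 combination mice lie below control, and ANT008 and anti-PD-1 mice overlap with it.

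V genes differed in how often they joined TRBJ1. In out-of-frame rearrangements, where the pairing is not selected on the protein, 45.5% ± 5.37 (SD, n = 16) of TCRBV01-01 rearrangements used TRBJ1. This was 11.6 points above the other V genes and higher in 15 of 16 mice (exact sign-flip permutation test, adjusted p = 0.000349). TCRBV29-01 followed at 42.5% (8.35 points higher), TCRBV02-01 at 42.0% (7.89 points, 16 of 16 mice), TCRBV31-01 at 41.5% (7.26 points) and TCRBV20-01 at 38.9% (4.66 points). At the other end TCRBV13-02 used TRBJ1 in 27.2%, a difference of -7.87 points, and was higher than the other V genes in 0 of 16 mice (exact permutation, adjusted p = 0.000305). TCRBV17-01, TCRBV13-03, TCRBV14-01 and TCRBV13-01 stood at 28.5, 28.6, 28.7 and 29.4%. Of the 20 V genes tested, 40% joined TRBJ1 more and 50% joined it less.

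Along the chromosome, in RefSeq gene order, the highest TRBJ1 shares lay at both ends of the tested V genes. Trbv1, Trbv2 and Trbv3 at one end stood at 45.5, 42.0 and 37.0%, and Trbv20, Trbv24, Trbv26, Trbv29 and Trbv31 at the other stood at 38.0 to 42.5%. Between them Trbv12-1 to Trbv14 lay at 27.2 to 30.8%, and Trbv15 at 36.1% was an exception. This order was noticed after the values were seen and is a description. The leading V genes joined several members: TCRBV01-01 used TCRBJ01-01 in 10.2%, TCRBJ01-04 in 9.56% and TCRBJ01-02 in 8.66% of its out-of-frame rearrangements.

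Among productive rearrangements 40% of the 20 V genes joined TRBJ1 more and 35% less. The number called in both frames was 13, and 12 of these kept their direction. TCRBV13-01 and TCRBV13-02 turned to 2.17 and 0.621 points above the other V genes. Weighted by templates 1 V gene passed. Over the 16 mice the V genes whose template share moved most like that of TRBJ1 were TCRBV13-02, TCRBV13-03 and TCRBV03-01, with Spearman's rho of 0.359, 0.318 and 0.244 among 24 V genes, all weak. These shares come from the same templates, and the values are a description.

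**Figure D5:**
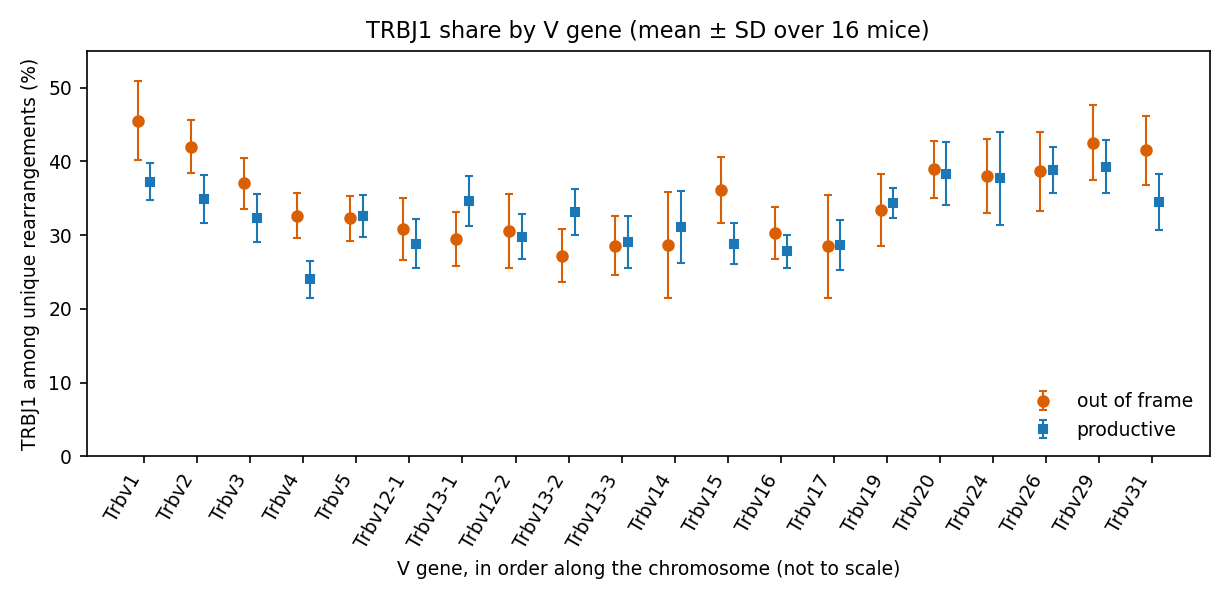
Percent of each V gene's unique rearrangements that use TRBJ1, out of frame and productive (mean and SD over 16 mice), for the 20 V genes tested in their order along the chromosome, not to scale. Out of frame, Trbv1 is highest at 45.5% and Trbv13-2 lowest at 27.2%.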

How the data were processed

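T cell receptor beta rearrangements were sequenced by Adaptive Biotechnologies from samples labelled as tumor T cells of 16 mice, 4 per group. The labels name RNA as the extract and the study's text names DNA in 1 place, so a template may be a transcript or a gene copy. Template counts per rearrangement were deposited by the authors as the service made them, with V, D and J calls, frame, deletions and insertions, and read counts were empty. The aligner, its version and the genome build are not given in the sources used here, so no coordinates are printed. RefSeq's GRCm38.p6 table gave symbols and gene order, and it matched 14 of 14 J genes and 20 of 20 V genes tested. The files hold 1 order name, 1 primer set and 1 counting method, hence no batch to test.

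Samples were grouped by their labels, and each is taken as 1 mouse, so p-values measure the spread between these samples. Shares were taken over rearrangements with a single J call, which left out 0.0158 to 0.219% of templates. The authors' in-frame flag was called productive. Insertions are those at both joints, as deposited, and CDR3 length is in nucleotides.

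Groups were compared by an exact permutation form of Dunnett's test over all 63063000 assignments, with Benjamini-Hochberg adjustment over 18 comparisons. Within-mouse differences were tested by exact sign flips over 65536 assignments. J gene counts (at least 10 templates over all samples, in at least 4 samples) were tested with edgeR 4.0.16 (glmQLFit, glmQLFTest; library size fixed at productive templates), with DESeq2 1.42.0 as an alternative, in R 4.3.3. V genes needed 20 unique out-of-frame rearrangements in every sample. Adjusted p under 0.05 was called. In tests on simulated data with 13 J genes for the combination comparison, edgeR recovered 92% of genes changed by log2 2, with 0.22 false calls per set. The simulation gave every gene the same spread (dispersion 0.196) and did not lower the other genes. Smaller changes, such as the TCRBJ01-03 estimate of 1.26, were not simulated, so the power to find them is not known. The other steps ran in Python 3.11.15 with numba 0.67.0, scipy 1.17.1, pandas 2.3.3 and numpy 2.4.6. Intervals cover counting error only, and depth (11317 to 99411 templates) limits the rarest members most.

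All 7 TRBJ1 genes were named. V genes named were the 5 most different in each direction, and the 3 whose template share correlated best with TRBJ1. Clones named were the leading TRBJ1 rearrangement of each mouse, the 5 CDR3s found in most mice and those in the top 50 of 3 or more, with CDR3s of 15 residues given by gene only. Alternatives changed the normalization, filter, counting unit and frame, and left out single samples. The members and lists were chosen with earlier results of these data known.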

Additional observations from a re-analysis of the deposited data

Results flagged for a closer look

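Dixon's test, which by chance picks about 1 group in 20, was run on 96 groups of 4 mice for TRBJ1 shares, CDR3 length, J deletions and insertions and picked 8. Of productive templates, control replicate 4 stood apart for TCRBJ01-02 at 17.6%, ANT008 replicate 1 and combination replicate 4 for TCRBJ01-05 at 11.3 and 8.12%, anti-PD-1 replicate 1 for TCRBJ01-03 at 6.52% and anti-PD-1 replicate 3 for TCRBJ01-01 at 3.65%. In the first of these the leading clone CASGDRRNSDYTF held 12.7% of productive templates, and in ANT008 replicate 1 and combination replicate 4 the CDR3s like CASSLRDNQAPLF held 5.83 and 5.36%. Of unique productive rearrangements, ANT008 replicate 3 was high for TCRBJ01-01 at 9.15% and anti-PD-1 replicate 3 low at 8.19%. Of unique out-of-frame rearrangements, combination replicate 3 was high for TCRBJ01-03 at 6.26%.

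The interaction of ANT008 and anti-PD-1 passed for 1 TRBJ1 measure after adjustment and for another only before it. Mean inserted bases averaged 3.57 in control, 3.40 in ANT008, 3.38 in anti-PD-1 and 3.43 in combination mice, giving an interaction of 0.213 bases (SE 0.0540; exact permutation test, two-sided, p = 0.00210, adjusted p = 0.0126 over 6 interactions). This interaction draws on the same 4 control mice as the differences from control and was not tested under any alternative. Out of frame those differences were -0.133 with ANT008, -0.318 with anti-PD-1 and -0.350 bases with the combination. With 2 or more templates they were -0.139, -0.135 and -0.203 bases. In both the combination lay furthest from control. With a D call or by unique CDR3 amino acid sequences it lay nearest, as it did here. Mean CDR3 length had an interaction of 0.401 nt (SE 0.180; exact permutation, p = 0.0363), which did not pass the adjustment (adjusted p = 0.109). The interaction p-values come from reassigning all samples freely to the 4 groups, so they are exact only where no treatment has any effect. Differences from control were called for inserted bases, so that p-value does not isolate the interaction.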

How the results depend on the processing

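Of 1016 alternative values for 52 results, 936 kept direction and call, and of the 832 that left out 1 sample, 797 did. The alternatives on frame, D call, 1-template rearrangements and amino acid sequences for insertions were chosen after seeing the data. Where a call or direction changed, the cause was not tested.

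The replicate numbers are only shared names, since same-numbered samples of different groups correlated at -0.628 to 0.638 in their deviations (24 pairs) and 4 of 16 correlated best with their own number. With a replicate block 26 of 27 results were as before, and the J genes called for anti-PD-1 went from 1 to 0. That count was also 0 with TMM factors, out-of-frame templates or unique rearrangements, and out-of-frame templates gave 1 for the combination.

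Weighting by templates gave, for TRBJ1 against out-of-frame shares, 4 genes in place of 7, with TCRBJ01-01 at -1.67, TCRBJ01-04 at -0.404 and TCRBJ01-05 at 0.208 points. Without rearrangements of 1 template TCRBJ01-01 was at -0.0386 and TCRBJ01-04 at -0.193 points. Template weights also gave 1 V gene in place of 18, CDR3 length differences of 0.285 (ANT008) and 0.0904 nt (combination), J deletion differences of -0.283 (ANT008) and 0.167 bases (anti-PD-1), and insertion differences of -0.497, -0.533 and -0.370 bases, none past the threshold. TRBJ1 less TRBJ2 was then -0.0887 nt for CDR3 length, 0.0401 for productive and -0.0848 for out-of-frame insertions. Without TCRBJ02-07 the J deletion differences were -0.0140 productive and -0.0259 out of frame.

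For group comparisons of shares and joints, a change under an alternative is counted on the permutation p before adjustment over 18 comparisons. On that p, insertions no longer passed for ANT008 out of frame (-0.133), for ANT008 and anti-PD-1 without rearrangements of 1 template (-0.139 and -0.135) and for the combination, not called after adjustment, by unique CDR3 amino acid sequences (-0.0967). Without the 10 most frequent rearrangements the TRBJ1 template share with anti-PD-1 differed by -2.64 points. TCRBJ01-02 with ANT008 was at a log2 fold change of 0.0044 by unique rearrangements. Among productive rearrangements TCRBV13-01 and TCRBV13-02 were at 2.17 and 0.621 points.

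With 1 sample left out, J genes called ranged from 0 to 1 in each comparison, and TRBJ1 genes from 0 to 1 for the combination (1 without combination replicate 1 or control replicate 2, where TCRBJ01-03 ranged from 0.95 to 1.57). TCRBJ01-02 ranged from -1.12 to 0.036 with ANT008 and from -1.01 to 0.15 with anti-PD-1, changing sign without control replicate 4. TCRBJ01-03 against out of frame ranged from -0.300 to -0.198 points, and its call was lost in 5 runs. These left out ANT008 replicate 3, ANT008 replicate 4, anti-PD-1 replicate 2, combination replicate 3 or control replicate 4. The TRBJ1 genes called against out of frame thus ranged from 6 to 7. The template share difference ranged from -3.76 to 1.19 points (ANT008; sign changed without control replicate 4), from -2.13 to 2.82 (anti-PD-1; without anti-PD-1 replicates 3 or 4 or control replicate 1) and from -3.75 to 1.22 (combination; without combination replicate 2 or control replicate 4). The unique share difference ranged from -0.496 to 0.0680 (ANT008; without control replicate 4) and from -1.53 to -0.765 points (combination; unadjusted exact permutation p = 0.0254 without combination replicate 3). CDR3 length with ANT008 ranged from -0.379 to -0.159 nt (unadjusted exact permutation p = 0.0215 without ANT008 replicate 2). J deletions ranged from -0.0402 to 0.00886 with anti-PD-1 (without control replicate 4) and from -0.0835 to -0.0345 bases with the combination (unadjusted exact permutation p = 0.0403 without control replicate 3).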

Other observations

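Out-of-frame TRBJ1 rearrangements, which encode no receptor chain, also included large clones. The leading one of a mouse held 0.888 to 21.4% of out-of-frame templates, with a median of 3.75%. In control replicate 4 it joined TCRBV02-01 to TCRBJ01-02 and had 2726 templates, against 4737 for the leading productive TRBJ1 clone of that mouse, which also used TCRBJ01-02. In combination replicate 3 it joined TCRBV15-01 to TCRBJ01-03 and had 3270 templates, against 3872 for the leading productive clone, also of TCRBJ01-03. The 2 mice had the highest out-of-frame template shares of these genes, 25.7% for TCRBJ01-02 and 18.2% for TCRBJ01-03. The leading clones themselves made up 2726 of those 3272 and 3270 of those 4375 templates. Both leaders used the same J gene in 5 of 16 mice, and the number to be had from unrelated leaders was not computed.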
